A study of Zea mays and Triticum urartu with 3 samples.

Results

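The regions described here are the long loci of maize that were detected in leaf input RNA. They are the loci on chromosomes 1 to 10 whose listed end minus start was 10000 or more, that had the same coordinates in the table of the anti-CENH3 RIP library and in that of the input library, and whose input FPKM (fragments normalised to transcript length and library total) was above 0. Of 42626 loci with identical coordinates, 3233 were this long, and 2281 of these were members. The other 952 were listed at 0 in input. The members were thus selected on span and on input FPKM, and those compared were chosen by the fragments of both libraries, so the levels of input are given as a description only.

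Both groups came from young, greenhouse-grown leaves of the inbred line B73, with 1 library each. The B73-RIP library held RNA recovered by anti-CENH3 immunoprecipitation from formaldehyde-fixed chromatin treated with DNase I. CENH3 replaces histone H3 in the nucleosomes of active centromeres. The B73-Input library was of the same line and tissue, and its labels name no antibody. The purpose of the pair was to describe RNA associated with centromeric chromatin. The RIP loci carry the prefix B73-RAC in the table, which differs from the label B73-RIP, and the wheat library of the series was not used. No difference below has a replicate check, and no test was possible, since loci are not replicates of a condition.

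In maize, as in many plants with large genomes, most of the length of a long gene lies in introns, and these are often filled with retrotransposons. Only the exons remain in the mature mRNA, while RNA that is still being transcribed on chromatin carries the introns as well. The span of a locus is therefore not the length of its transcript. An assembled locus, which Cufflinks builds from overlapping reads, can also join neighbouring or overlapping transcripts. CENH3 nucleosomes occupy only a small part of each chromosome, and most long genes lie outside centromeres.

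The members had a median span of 14610 bp, from 10003 to 194478 bp. There were 1664 of 10 to 20 kb, 568 of 20 to 50 kb and 49 over 50 kb. Of the 2281, 1856 (81.4%) were assembled from the reads in both libraries, 187 were listed under an annotated gene identifier in both, and 238 in only 1 of them. None of the 425 annotated identifiers was matched by the reference table of gene names, so loci are given by position (B73 RefGen_v4, starts counted from 1) and no gene function can be stated.

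Most members were thinly covered. The fragments behind each FPKM were derived as (2 × FPKM/(upper confidence limit − FPKM)) squared, and these implied fragments had a median of 5.46 in RIP and 8 in input. The lower limit of FPKM reached 0 at 26.1% of the members in input and at 37.0% in RIP, 481 members had no more than 3 input fragments, and 108 were listed at 0 in RIP. Detection in input therefore rested on few fragments at many members. With longer span the depth rose, from a median sum over both libraries of 13.8 fragments at 10 to 20 kb to 36.1 over 50 kb.

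Ratios were taken where both libraries together had 20 or more fragments. This left 825 long loci, of which 564 spanned 10 to 20 kb, 226 spanned 20 to 50 kb and 35 were over 50 kb. The other 1456 members stay out of every ratio below. Under the same conditions 2780 shorter loci could be compared. The ratio is log2((RIP fragments + 0.5)/(input fragments + 0.5)) and was divided by no library total, so its zero point has no meaning of its own and values are read against those of other loci.

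A limit applies to all fragment values of long loci. The derivation gives a whole number where the deposited limits reflect a plain count. It was whole within 0.02 in both libraries at 7.15% of the long loci (59 of 825), against 29.3% of the shorter ones. Elsewhere the value is better read as a measure of how precisely the FPKM was known than as a number of reads, and how far it departs from the reads was not tested.

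Long loci had relatively fewer RIP fragments than most other loci. Their median log2 ratio was −0.66 (95% rank interval over loci −0.74 to −0.57), against −0.24 (−0.29 to −0.16) at the shorter loci and −0.36 at all 3605 pairs tested. By class, the median was −0.70 (−0.80 to −0.61) at 10 to 20 kb, −0.56 (−0.73 to −0.34) at 20 to 50 kb and −0.66 (−1.02 to −0.07) over 50 kb. These intervals are over loci of 1 pair of libraries and serve as a description. Whether the 3 long classes differ was not tested.

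At 82 long loci (9.94%) RIP had at least 2-fold more fragments than input, and among all pairs tested 18.7% were called in this direction. At 299 (36.2%) it had at least 2-fold fewer, against 29.7% of all pairs. Long loci thus held a smaller share with an excess in RIP and a larger share with a deficit. At the 8-fold level 24 long loci (2.91%) were higher, against 4.08% of all pairs, and 16 (1.94%) were lower, against 5.83%. Far-off ratios in either direction were less frequent among long loci than among all pairs. The same held for loci of 5 to 10 kb. Of these, 11.2% showed a 2-fold excess and 33.9% a 2-fold deficit, with 2.62% and 2.83% at 8-fold. Each share lay nearer to that of long loci than to that of all pairs. Among shorter loci assembled in both libraries the shares were 13.0% and 31.0%, with 1.92% and 5.09% at 8-fold.

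**Figure D1:**
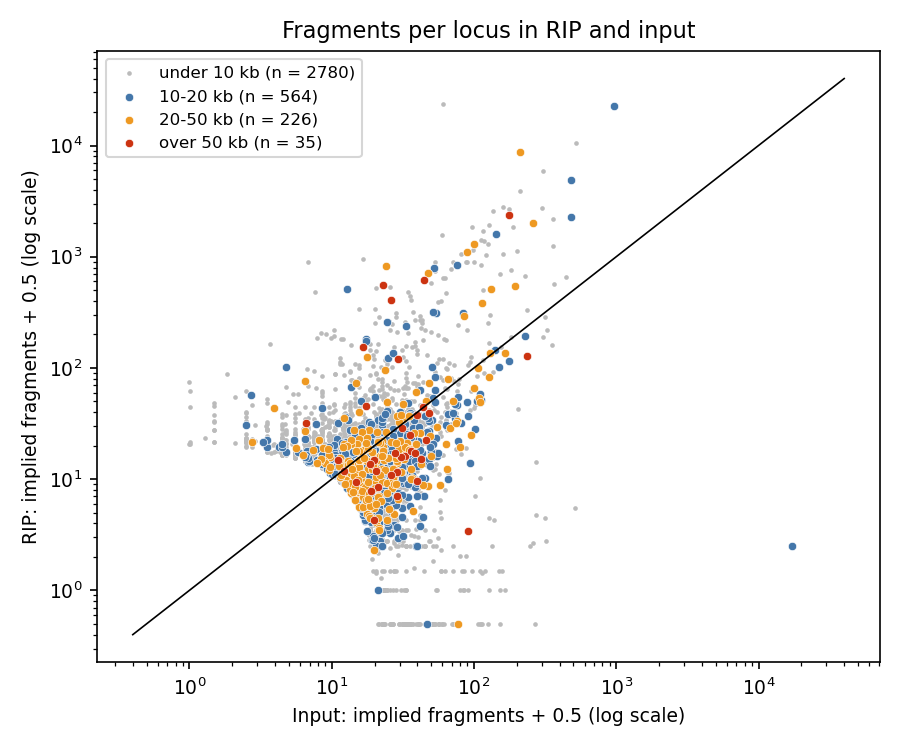
Implied fragments of each locus in input (x axis) and RIP (y axis), both with 0.5 added and on log scales, for 825 long loci coloured by span class and 2780 shorter loci in grey. The line marks equal fragments, and 226 of the long loci lie above it, among them nearly all with 500 or more fragments in sum.

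Over loci of all origins together, the ratio fell with span up to about 10 kb and then levelled off. The median was 0.77 at loci under 1 kb, 0.33 at 1 to 2 kb, −0.14 at 2 to 5 kb and −0.54 (−0.61 to −0.49) at 5 to 10 kb. The median of this last class lay between that of 2 to 5 kb and that of 10 to 20 kb, −0.70. The classes differ in origin, with 144 of 181 loci annotated in both libraries under 1 kb and 13 of 564 at 10 to 20 kb. Loci annotated in both had medians of 0.64 under 1 kb and 0.13 at 5 to 10 kb. In the 3 long classes their medians were higher, at 0.50 (13 loci), 1.10 (6) and 3.78 (4). Loci assembled in both had medians of 1.17 under 1 kb (12), −0.58 at 5 to 10 kb and −0.74 at 10 to 20 kb. Within the 825 long loci, Spearman's rho between span and ratio was 0.09, against −0.21 over all 3605 pairs. Both are descriptions across loci of the same 2 libraries, and genes are not independent replicates.

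**Figure D2:**
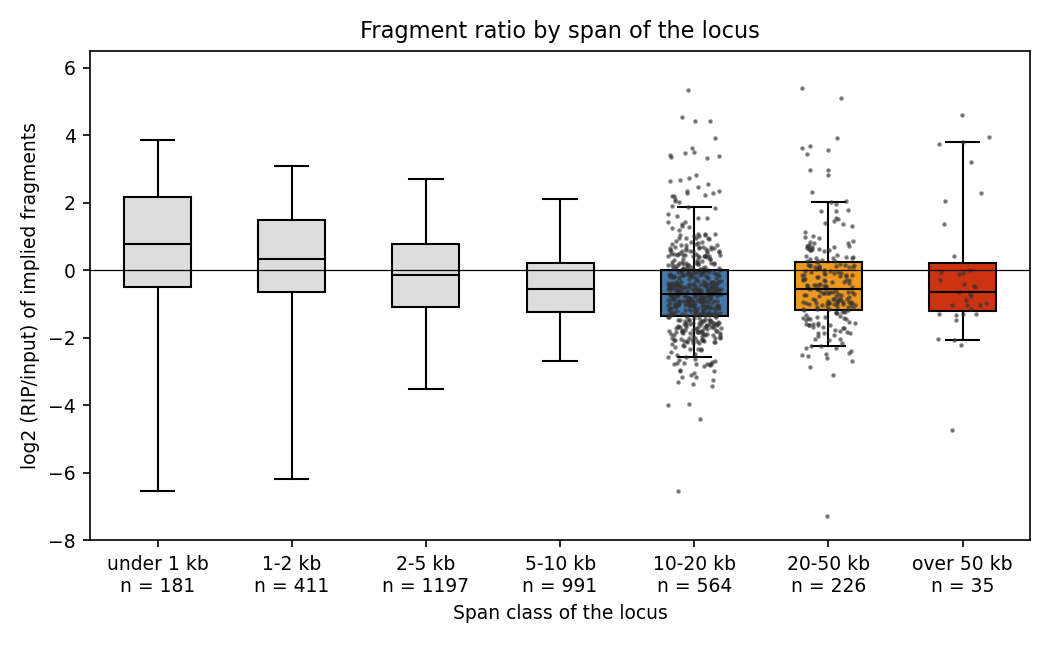
Log2 ratio of RIP to input fragments by span class, with boxes from the lower to the upper quartile, a line at the median and whiskers from the 5th to the 95th percentile of loci. Points are single long loci, 1 of which, at −12.74, lies outside the axis. The medians fall from 0.77 under 1 kb to −0.54 at 5 to 10 kb and lie between −0.70 and −0.56 in the 3 long classes.

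The origin of the locus went along with its ratio. Among long loci that were assembled in both libraries the median was −0.70 (757 loci), and among shorter assembled loci it was −0.47 (1611 loci). Loci annotated in both libraries had a median of 0.25 when shorter (650 loci) and 1.04 when long (23 loci, of 187 such members). Since 757 of 825 long loci but only 1611 of 2780 shorter ones were assembled in both, the 2 sets differ in this respect as well as in span.

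The comparison was then made at similar sums of fragments. Loci were divided into 7 strata of summed fragments, and the median of the long loci was set against that of loci under 10 kb in each. Averaged with the number of long loci as weight, the long loci stood at −0.58 and the shorter ones at −0.11, a difference of −0.47. The difference was −0.46 for 10 to 20 kb, −0.45 for 20 to 50 kb and −0.33 for over 50 kb. It was −0.16 when only shorter loci of 5 to 10 kb were used, −0.27 with assembled loci alone and −0.12 with both conditions. In strata of input fragments in place of summed fragments it was −0.27 for all long loci and −0.13 for 20 to 50 kb.

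The sign of this difference depended on the measure. By deposited FPKM, with log2((RIP FPKM + 1)/(input FPKM + 1)) at the same pairs, the long loci lay above the shorter ones by 0.48, and without the added 1 by 0.77. At loci annotated in both libraries the fragment ratio also went the other way, with a difference of 0.52, but only 23 long loci entered. A lower RIP signal of long loci was therefore seen in fragments, was smaller against loci of 5 to 10 kb, and was not seen in FPKM. With 100 or more fragments in sum as the minimum, the median of the long loci was 0.62 and the difference −1.23.

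The strata differed among themselves. With 20 to 30 fragments in sum the medians were −0.70 (365 long loci) and −0.36 (1314 shorter), and with 30 to 50 they were −0.75 (271) and −0.29 (860). Between 100 and 200 the long loci stayed at −0.61 (39) while the shorter ones rose to 0.84 (119), and between 200 and 500 the medians were 0.07 (17) and 2.43 (57). From 500 on both kinds were high in RIP, where RIP fragments alone can bring a locus into the stratum. There the medians were 3.91 (9) and 3.35 (27) between 500 and 1000, and 3.56 (10) and 3.66 (25) above.

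The ratios of long loci were also packed more closely than those of all shorter loci together, but not than those of 5 to 10 kb. The SD over loci was 1.46 at long loci, 1.46 at 5 to 10 kb and 1.99 at all shorter loci. In the stratum of 20 to 30 fragments the interquartile range of long loci was 1.37, against 1.67 for all shorter loci. It was the smaller of the pair in each of the 7 strata. The SD over loci in the first stratum was 1.13 and 1.53. Above 1000 fragments the SD went the other way, at 5.26 and 1.37, and there a single long locus at −12.74 stood apart. For 64.1% of the 825 long loci, the 95% Wilson interval of the locus' own RIP share included the median share of the set, 38.4%. Most long loci could thus not be told from this median at their depth.

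**Figure D3:**
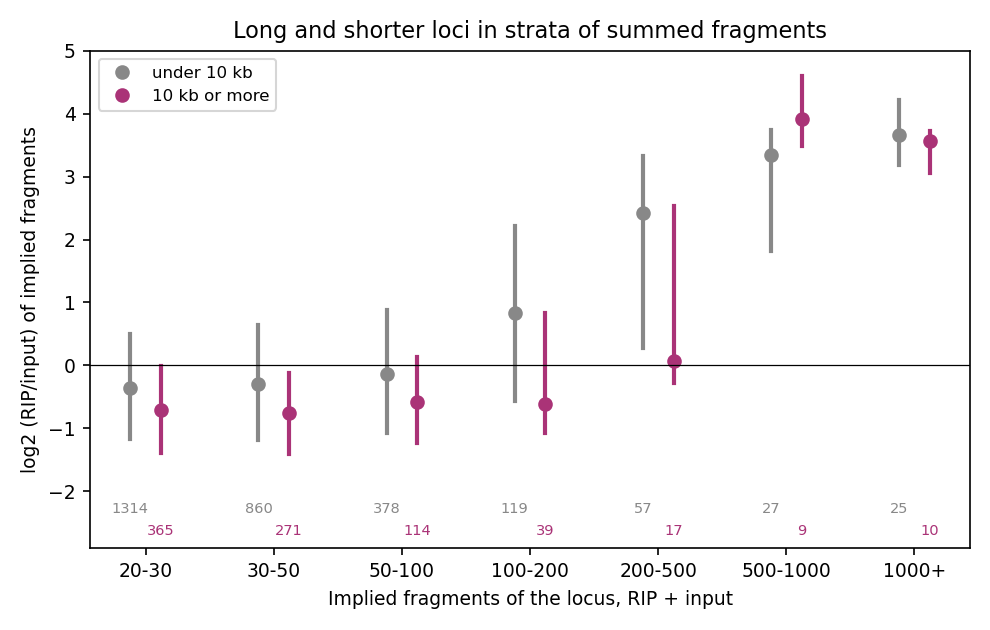
Median log2 ratio of RIP to input fragments (points) and interquartile range over loci (bars) for loci of 10 kb or more and for loci under 10 kb, in 7 strata of summed fragments. The number of loci is printed under each. Long loci lie lower in every stratum up to 200 to 500 fragments, and both kinds exceed 3 from 500 on.

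The number of fragments behind 1 FPKM differed between the tables. In input this number rose with span, from a median of 0.847 under 1 kb to 4.38 at 5 to 10 kb and 5.24 at the long loci. In RIP it had no single direction, with 27.1 under 1 kb, 74.7 at 1 to 2 kb, 59.1 at 2 to 5 kb, 46.2 at 5 to 10 kb and 38.5 at the long loci. The RIP value of a locus divided by its input value had a median of 35.4 under 1 kb, 46.4 at 1 to 2 kb and 7.90 at long loci. By definition this number grows with the assigned transcript length and with the library total, and the part of either in these differences was not tested.

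Within the long loci, fragments per FPKM no longer followed span. Their medians in input were 5.20, 5.38 and 4.48 in the 3 classes, and in RIP they were 39.2, 38.4 and 33.7. Spearman's rho with span was 0.000947 in input and −0.04 in RIP over the long loci, against 0.58 and −0.17 over all pairs tested.

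**Figure D4:**
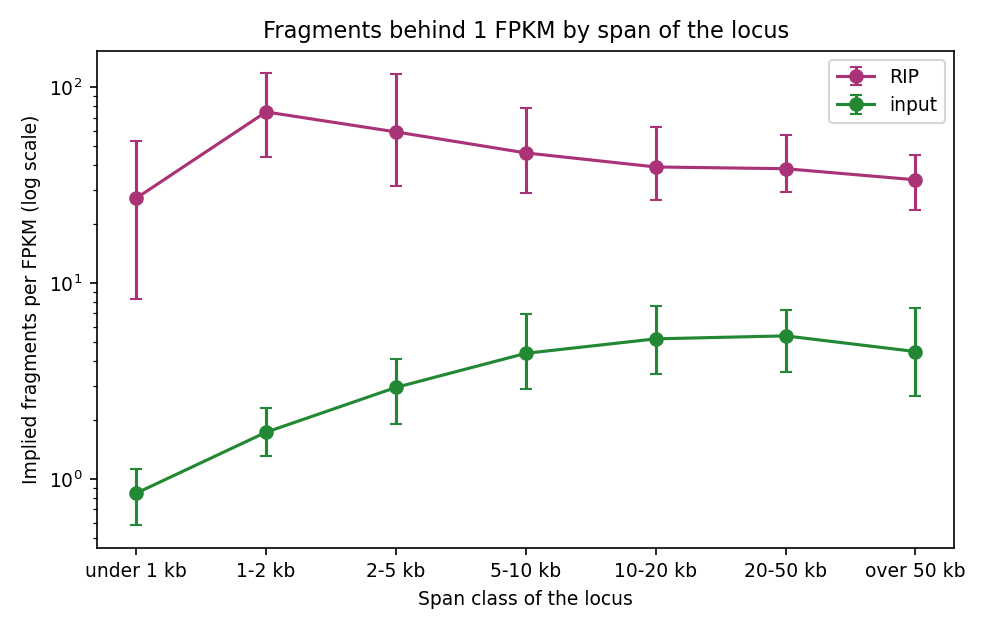
Implied fragments per FPKM (log scale) in RIP and input by span class, with points at the median and bars from the lower to the upper quartile over loci. Input rises from 0.847 under 1 kb to 5.20 at 10 to 20 kb and then stays level, whereas RIP goes from 27.1 under 1 kb up to 74.7 at 1 to 2 kb and down to 39.2 at 10 to 20 kb.

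A small number of long loci held a large part of the fragments. The 2281 members had 75487 implied fragments in RIP, 16.5% of those on chromosomes 1 to 10, and 49328 in input, or 6.88%. The input share depended on 1 locus that was not a member, 10:35055011-35065115, which alone held 51.5% of the input fragments. Leaving out the locus with the most fragments of each library, an alternative chosen after seeing the data, gave shares of 17.4% in RIP and 14.2% in input, and leaving out the highest member as well gave 12.9% and 9.76%. The 19 loci with 500 or more fragments in sum held 69.9% of the members' RIP fragments and 41.7% of their input fragments. Leaving them out turned the direction of the sum, with 22724 fragments in RIP and 28758 in input at the other 2262 members.

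Of these 19 loci, 18 had an excess in RIP of 2-fold or more and 14 of 8-fold or more, with log2 ratios from 1.50 to 5.40 and a median of 3.72 at the 18. The other 1 was lower. At each of the 18, RIP alone had 515 or more fragments, while input had from 12.2 to 968. These loci thus entered the set through RIP, so their excess in RIP is partly fixed by the choice and is a description only. Among shorter loci with 500 or more fragments, 45 of 52 were at least 2-fold higher, and the median was 3.45. By FPKM, 11 of the 19 were higher in RIP, and the deposited limits were apart in this direction at 8.

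The long locus with the most fragments was 5:209654501-209671076 (16576 bp). Its RIP level was 351.9 FPKM, with limits of 347.2 and 356.6, from 22456 fragments. Its input level was 150.7 FPKM, with limits of 141 and 160.4, from 968 fragments. RIP held 95.9% of its fragments (95% Wilson interval 95.6 to 96.1%, which covers counting error only), a log2 ratio of 4.54. This locus alone carried 29.7% of all RIP fragments at long loci.

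The next in RIP was 6:126730484-126750885 (20402 bp), with 8813 fragments against 209 and the highest ratio of any tested long locus, 5.40. At 2:189658754-189670074 (11321 bp), RIP had 4876 fragments and input 478, a log2 ratio of 3.35. By FPKM this locus went the other way, with 26.8 in RIP (26.0 to 27.5) and 36.5 in input (33.2 to 39.8). The locus at 2:206603849-206617133 (13285 bp) had 2277 and 482 fragments (2.24), and 70.6 and 25.5 FPKM.

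Chromosome 2 held 6 of the 19. Whether this exceeds its share of all long loci was not tested, and RIP fragments count towards the choice of the 19. Among the 6 on chromosome 2, 2:153729878-153753926 and 2:153755348-153769526 lay 1421 bp apart. RIP had 1110 fragments at the first, where input had 89.2 (3.63), and 788 at the second, where input had 51.7 (3.92). Fragments per FPKM were close to each other at these neighbours, with 63.9 and 64.3 in RIP and 5.74 and 5.66 in input. Whether reads of repeated sequences were shared between such loci cannot be told from the tables, so values of single loci in repeats are uncertain.

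The longest locus of all, Zm00001d001010 (2:209197749-209392226, 194478 bp), was annotated in both libraries. Its RIP level was 678.7 FPKM (650.8 to 706.6), from 2365 fragments, and its input level was 194 FPKM (165 to 223), from 176. It was thus higher in RIP by both measures (log2 fragment ratio 3.74). Only 3.48 fragments in RIP and 0.906 in input stood behind 1 FPKM, near the input median of loci under 1 kb.

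Next in length were 3:49663556-49811108 (147553 bp), Zm00001d026864 (4:96971362-97109426, 138065 bp) and 5:67089569-67220841 (131273 bp). At the first, RIP had 129 fragments and 10.7 FPKM, below the 237 fragments and 60.6 FPKM of input (−0.88). Zm00001d026864 had 621 and 43.8 fragments (3.81), and 26.9 and 7.88 FPKM. The last of them had 406 and 25.7 fragments (3.96), and 47.3 and 24.6 FPKM. The 4 longest loci thus lay above the median ratio of long loci, apart from 3:49663556-49811108. Its RIP share was 35.2% (Wilson interval 30.4 to 40.2%), which could not be told from the median share of long loci, 38.4%.

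All 4 loci over 50 kb that were annotated in both libraries were at least 2-fold higher in RIP. They were the 3 annotated loci just given and 1:128944931-129010406, with 119 fragments in RIP and 28.5 in input (2.04). The 31 assembled loci over 50 kb had a median of −0.77, with 4 at least 2-fold higher and 13 at least 2-fold lower. The highest of them was 1:250185942-250239236, with 551 and 22.4 fragments (4.59), although the limits of its FPKM overlap, at 49.4 (45.2 to 53.6) for RIP and 56.9 (32.8 to 80.9) for input.

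Of the 187 members annotated in both libraries only 23 had 20 or more fragments in sum, against 757 of the 1856 assembled in both. RIP fragments count towards this minimum, so high ratios among the 23 are partly fixed by it. Of the 23, 17 (73.9%) had a ratio above 0 and 12 (52.2%) were at least 2-fold higher. At least 8-fold higher were 9 (39.1%), and 2 (8.70%) were at least 2-fold lower. Among all 673 tested loci annotated in both, which include these 23, the shares were 57.2%, 35.8%, 10.7% and 23.3%. Depth, of which the RIP fragments are a part, went along with this. Of the 7 with 100 or more fragments 6 were at least 8-fold higher, while the 16 with fewer had a median of 0.16.

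Among loci of 10 to 20 kb with 100 or more fragments in sum, the highest ratios besides that of the leading locus (4.54) were at 4:203195134-203209175, where RIP had 517 fragments and input 12.2 (5.34), and 4:157106497-157120550, where they had 101 and 4.26 (4.41). The input value of the second had limits of 0.0194 to 1.25 FPKM, against 0.982 to 1.47 in RIP, and these overlap. At 20 to 50 kb and the same minimum, after 6:126730484-126750885, 3:228054270-228078456 had 822 and 23.7 fragments (5.09) and 2:126969673-127005982 had 717 and 47.1 (3.91). The former was another locus with opposite signs, at 11.3 FPKM (10.5 to 12.1) in the RIP table and 64.5 (38.0 to 91.0) in the input table.

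The lowest ratio was at Zm00001d023040 (10:3776616-3790816, 14201 bp), with 2 fragments in RIP and 17064 in input, or 0.448 FPKM (0 to 1.08) and 38699 (38106 to 39291). RIP held 0.012% of its fragments (Wilson interval 0.003 to 0.043%). This single locus carried 34.6% of the input fragments of all members. It was listed under the annotated identifier in RIP but as an assembled locus in input, so the transcripts behind the values need not be the same.

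The other low loci with 100 or more fragments in sum were far less abundant. At 10 to 20 kb, RIP had 13.3 fragments at 5:79554503-79570576 while input had 93.0 (−2.76), and at 8:87301378-87313130 the values were 27.6 and 101 (−1.85). At 20 to 50 kb, 5:42041322-42064394 had 24.6 and 94.2 (−1.92), 5:41543863-41566854 had 31.3 and 74.3 (−1.23), and 2:1811147-1839106 had 32.8 and 75.1 (−1.18). RIP fragments count towards the 100, so how far the ratios reach to either side is partly fixed by this choice.

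Over 50 kb, 1:9547625-9612900 had 2.93 fragments in RIP and 90.6 in input (−4.73), with 0.0875 FPKM (0 to 0.190) and 9.71 (7.67 to 11.7). It was followed by 5:129466482-129557572, with 3.77 and 19.4 fragments (−2.22), and 5:90502234-90559505, with 9.05 and 39.6 (−2.07). Only 2 tested long loci were listed at 0 in RIP. They were 10:145472125-145494737, with 76.6 input fragments, and 1:244881980-244894327, with 46.0. These input values were 25.5-fold and 15.3-fold a floor of 3 counts in RIP. No library total was divided out and the error of the input value was left aside, so these are not bounds on a difference in level.

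Of the 75 long loci with 100 or more fragments, 39 had a RIP share whose Wilson interval lay above 50%, 26 had one below 50% and 10 had one that included it. The share was above 70% at 35 of them. RIP fragments count towards the 100, so high shares are partly fixed by this choice. Over all 825 long loci, 52.4% had an interval that included 50%. A share of 50% means equal fragments and not equal levels, since no library total was divided out.

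**Figure D5:**
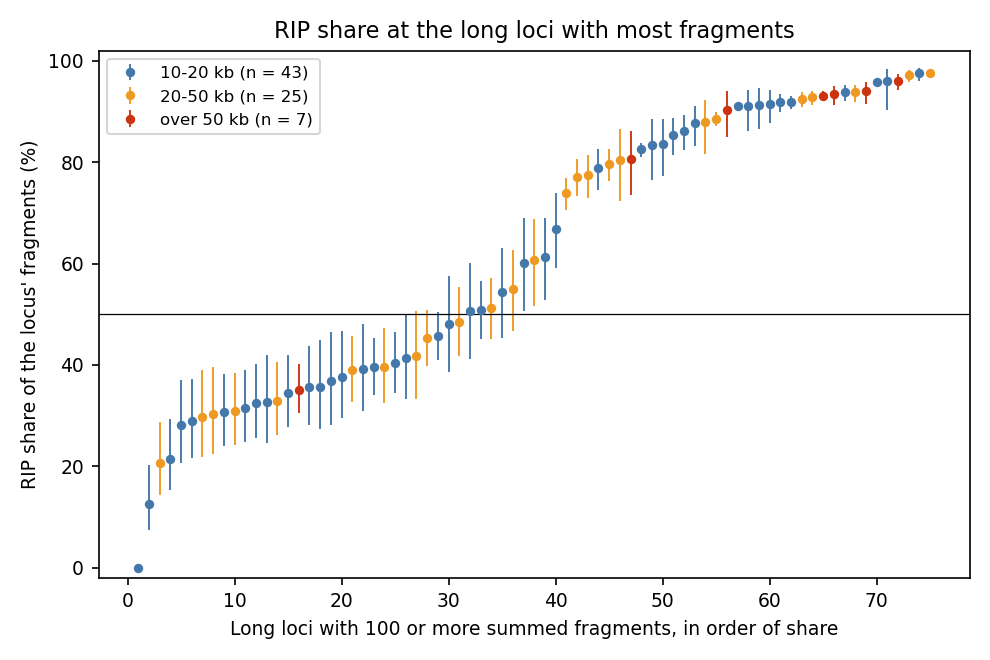
Share of the implied fragments of each long locus that came from RIP, in %, with 95% Wilson intervals (counting error only), for the 75 long loci with 100 or more fragments in sum, ordered by share and coloured by span class. The horizontal line marks 50%, and 39 intervals lie above it and 26 below it.

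The sign of the difference was the same at all positions. The median of long loci was below that of shorter loci on each of the 10 chromosomes, by 0.23 on chromosome 2 at the least and by 0.66 on chromosome 3 at the most, without matching on depth. When each chromosome was cut into 5 equal parts, long loci had medians from −0.79 in the middle part (75 loci) to −0.57 in the first (200 loci), and shorter loci from −0.34 to −0.14. The middle part was thus the lowest of the 5 at long loci.

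Long loci often overlapped other listed loci. Of the 825, 248 (30.1%) overlapped another locus above 0 in at least 1 library, and this rose from 21.5% at 10 to 20 kb to 44.7% at 20 to 50 kb and 74.3% over 50 kb. At 5 to 10 kb it was 7.57%. The medians of long loci were −0.55 (−0.70 to −0.42) with and −0.70 (−0.81 to −0.62) without such an overlap. With only long and shorter loci that had no overlap, the difference in strata of summed fragments was −0.50. The part of overlap in the ratios was not tested.

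On either side of the limits of the rule the values were as follows. The shortest tested members were 4:92816855-92826876 (30 and 2 fragments, 3.61) and 1:277649984-277660006 (5.69 and 25.3, −2.06). The longest loci below 10 kb were 5:222621124-222631121 (11.9 and 11.3, 0.078) and 3:141235971-141245950 (9.86 and 15.0, −0.58), both between the 2 members in ratio. Around 20 fragments, 6 members lay within 0.02 of the limit, 3 on each side. The 2 just inside, 3:229673722-229695544 and 1:290780826-290793772, had log2 ratios of −1.16 and −0.62, and the 2 just outside, 3:216679147-216698259 and 2:243752222-243771474, had −1.87 and −1.16.

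Long loci listed at 0 in input were not members, and RIP had fragments at 516 of the 952. Their number was small, with a median of 2 where above 0, and 157 had more than 3. They included more loci annotated in both tables (42.2%) than the members did (8.20%). Zm00001d004256, a centromeric gene named by the study, was 1 of them. Only 5 of the 952 reached 20 fragments and could enter the comparison, which then held 830 long loci. The median ratio of long loci could hardly move by this, and was −0.65 in place of −0.66. It says nothing of the remaining loci listed at 0 in input. Another such gene, Zm00001d030471 (1:135204206-135245514, 41309 bp), was listed under this identifier at 0 in input and was not a member either.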

How the data were processed

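Of 3 samples, the B73 RIP and B73 input libraries of maize were used, as grouped by their titles. The authors deposited FPKM per locus with lower and upper confidence limits. The submitters' processing notes name CASAVA, TopHat2 2.0.12 and Cufflinks and the build B73 RefGen_v4. The Cufflinks version, the treatment of reads that map to several places and the strand setting were not given in the sources used here, so loci that overlap or have near-identical copies are uncertain.

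Loci were joined on identical chromosome, start and end. Fragments were derived from FPKM and its upper limit, taken to lie 2 SDs of a count above it. Listed loci on chromosomes 1 to 10 held 456321 such fragments in RIP and 716933 in input, which is not sequencing depth. Ratios used a pseudocount of 0.5 and a minimum of 20 summed fragments. Rank intervals describe where a median over the loci of these 2 libraries lies. They give neither the spread of loci nor a test between classes. Wilson intervals used 95% confidence. Strata with loci of both kinds entered the weighted difference. The calculation was tested on simulated whole counts only, so this test does not cover loci whose derived fragments are not whole. Python 3.11.15, pandas 2.3.3 and scipy 1.17.1 were used.

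Members, classes and alternatives were chosen with earlier results of these data known. Named loci were the 6 with the most fragments, the 3 highest and 3 lowest ratios of each span class with 100 or more fragments (20 over 50 kb, where only 7 had 100), the 4 longest and those beside the limits. The neighbouring pair on chromosome 2, the fourth annotated locus over 50 kb and the loci listed at 0 in RIP were chosen after their values were seen. At most 2 identifiers are given for each direction beside the study's own genes, because 0 of 425 were found in the reference table of gene names, which is of assembly Zm-B73-REFERENCE-NAM-5.0. No genome of the files' build was used here, and no sequence is shown. The wheat library was not analysed here.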

Additional observations from a re-analysis of the deposited data

Results flagged for a closer look

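Some long loci carried signal that no ratio above uses. In RIP, 5 were listed at 0 in input and had 20 or more fragments, above the 3 that a count of 0 allows. The locus at 2:19822929-19844820 had 67.2 fragments (2.12 FPKM, limits 1.60 to 2.64). Zm00001d004256 (2:97279244-97293487) had 47 fragments (3.35 FPKM, 2.38 to 4.33). The loci at 9:17401822-17412594, 1:38685403-38697325 and 2:38577223-38590549 had 39.1, 24.7 and 23.9 fragments.

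Other long loci had no partner with identical coordinates, namely 164 of 3397 in RIP and 158 of 3391 in input. In RIP the highest were 2:239399094-239421613, with 8783 fragments, which overlapped 1 input locus of 297 fragments, and 6:150024473-150035717, with 947. The latter overlapped the input locus at 6:150024486-150035717, with 501 fragments, whose start differed by a few bases. In input the highest was 10:35055011-35065115, with 369287 fragments and no overlapping RIP locus. These unpaired input loci held 374174 fragments in all, far more than the 49328 of the members.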

How the results depend on the processing

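No paired analysis was possible because each group had 1 library, and for the same reason no replicate could be left out. Of 154 values under alternatives, 76 stayed within a set range of the main value, 55 moved beyond it and 23 changed sign. For a median this range was its rank interval. For a difference it was set from the width of the rank interval of the matching median, and for a count it was a fixed fold band. The difference between long and shorter loci in strata of summed fragments, −0.47, was below 0 under 16 of 19 alternatives. In the lists below, medians and differences are log2 values, in the order all long loci, 10 to 20 kb, 20 to 50 kb and over 50 kb unless named. The causes of these changes were not tested.

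Counts are given with the number of long loci at the setting, which changes them by itself. Shares over all pairs were not taken for these settings. With a minimum of 10 fragments, 148 of 1477 long loci were 2-fold higher in RIP and 517 lower. With 50 they were 46 and 52 of 189. The medians of all and of 10 to 20 kb were −0.42 and −0.43, and the differences of the first 3 were −0.75, −0.63 and −0.94. With 100 the counts were 36 and 14 of 75, with medians of 0.62, 0.051, 0.62 and 3.74 and differences of −1.23, −1.02, −1.28 and 0.51. With whole fragments in both libraries the counts were 8 and 22 of 59, and the first 3 medians −0.51, −0.17 and −1.07. At 20 to 50 kb only 10 loci entered, with a difference of −0.94. Over 50 kb only 1 locus entered, with a ratio of 3.74.

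With annotated loci alone the counts were 12 and 2 of 23, the medians 1.04, 0.50, 1.10 and 3.78 and the differences 0.52, 0.36, 1.05 and 0.48. With assembled loci alone the first 3 differences were −0.27, −0.29 and −0.23. With FPKM + 1 the counts were 12 and 734 of 825, the medians −1.86, −1.86, −1.92 and −1.79 and the differences 0.48, 0.47, 0.44 and 0.72. Against shorter loci of 2 to 10 kb the first 2 differences were −0.36 and −0.35, and against 5 to 10 kb all 4 were −0.16, −0.15, −0.12 and 0.055. In strata of input fragments the differences were −0.27 for all and −0.13 at 20 to 50 kb.

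Other alternatives were chosen after seeing the data. With FPKM and no pseudocount the counts were 12 and 782 of 823, the medians −3.63, −3.70, −3.50 and −3.37 and the differences 0.77, 0.74, 0.83 and 1.15. With assembled loci of whole fragments the counts were 3 and 16 of 33, the first 3 medians −0.98, −0.93 and −1.16 and the first 3 differences −0.74, −0.68 and −0.94. With assembled loci against those of 5 to 10 kb the first 3 differences were −0.12, −0.15 and −0.072. Under 500 fragments in sum the median of all long loci was −0.68.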
